A study of Mus musculus with 9 samples.

Results

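The interleukin-12 (IL-12) family was examined as 9 genes, Il12a, Il12b, Il23a, Il27, Ebi3, Il12rb1, Il12rb2, Il27ra and Stat4, found among the 55359 genes of the count table by matching Ensembl identifiers to these symbols. All 9 were present, and 8 passed the filter on low counts that left 17123 genes for testing, with Il12a below it. The libraries were poly(A) RNA sequencing of whole omenta, a fat-rich sheet of peritoneum in the abdomen that tumour cells shed into the cavity readily colonise. All mice were C57BL/6, aged 7 to 10 weeks, and carried tumours of B16-OVA, a mouse melanoma line expressing chicken ovalbumin. Of these cells 500000 had been put into the peritoneal cavity on day 0. On day 6, IP mice received OT-I T cells into the peritoneal cavity, IV mice received OT-I T cells into the blood, and PBS mice received saline. OT-I cells carry a receptor for an ovalbumin peptide, and in both treated groups IL-12 mRNA had been introduced into them by electroporation. Omenta were taken 18 h after treatment, and each group had 3 libraries, named by mouse number (IP 2, IP 3 and IP 4, IV 1, IV 2 and IV 4, and PBS 1, PBS 2 and PBS 3). Values of single libraries are given in that order. T cells lacking IL-12 mRNA were given to no group analysed here, so what the cells did and what their cargo did cannot be told apart. Likewise, gene counts cannot tell Il12a and Il12b transcripts of the mice from delivered mRNA. For the genes named here, they also cannot tell RNA of the transferred OT-I cells, which PBS mice did not receive, from RNA of the omentum. The labels do not state the number of T cells given or whether the mRNA held both chains in 1 molecule.

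The IL-12 family cytokines are pairs of chains that are shared between them. The p40 chain, from Il12b, joins p35, from Il12a, to make IL-12, or p19, from Il23a, to make IL-23. The p28 chain, from Il27, joins the Ebi3 protein to make IL-27, and p35 with the Ebi3 protein makes IL-35. Dendritic cells and macrophages are the main sources of IL-12, IL-23 and IL-27. IL-12 acts on T cells and natural killer (NK) cells through the receptor chains of Il12rb1 and Il12rb2, which signal through STAT4 to raise interferon-gamma production. IL-23 uses the chains of Il12rb1 and Il23r, and IL-27 uses those of Il27ra and Il6st (gp130).

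Total counts were 25409924 to 32292732 in the IP libraries, 7379798 to 41146527 in the IV libraries and 25993996 to 44626843 in the PBS libraries, the shallowest being IV 2. The tissue label was checked against summed CPM (counts scaled to library size) of marker lists. Adipocyte markers summed to 407 to 710 CPM in IP, 815 to 1220 CPM in IV and 488 to 865 CPM in PBS, and mesothelial markers to 117 to 156, 132 to 186 and 110 to 169 CPM in the same groups, with no marker of either list at 0. Melanoma markers summed to 13400 to 15100 CPM in IP, 18000 to 23400 CPM in IV and 25200 to 28100 CPM in PBS. Pancreatic acinar transcripts made up 0.0191% to 1.88% of counts in IP, 0.00103% to 2.53% in IV and 0.00147% to 0.00211% in PBS. IV 4, the IV library with the fewest acinar counts, correlated more closely across genes with PBS 3 (r = 0.9815) than with IV 1 (r = 0.9484) or IV 2 (r = 0.9531). It was also closer to PBS 1, PBS 2, IP 2 and IP 3 (r = 0.9575 to 0.9598) than to IV 1 or IV 2. IV 1 was about as close to IP 4 (r = 0.9645) as to IV 2 (r = 0.9643). Values of Il12rb1, Il12rb2, Il23a and Il27ra in IV against PBS are therefore also given without IV 4. Over all genes, 2753 were called for IV against PBS, and this became 4578 without IV 4, 1005 without PBS 1 and 1440 without IV 2. For IP against IV the 1780 calls became 2865 without IV 4 and 691, 816 or 1063 without IP 2, IP 3 or IP 4.

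Most of the family was more abundant in treated omenta. In IP against PBS, Il12b, Il27, Ebi3, Il12rb1, Il12rb2 and Stat4 rose, which is 6 of the 8 genes tested, and none fell. At the same threshold, an adjusted p under 0.05 (edgeR quasi-likelihood test, Benjamini-Hochberg adjustment), 32.9% of all tested genes were called, 18.7% higher and 14.2% lower. In IV against PBS, Il27, Ebi3, Il12rb1, Il27ra and Stat4 rose, which is 5 of 8, and none fell, where 16.1% of all tested genes were called, 10.4% higher and 5.66% lower. In IP against IV none of the 8 passed, where 10.4% of all tested genes were called, 5.93% higher and 4.47% lower. In that comparison Il12b, Il27 and Il27ra had an unadjusted p under 0.05 in edgeR, DESeq2 called 1 of the members (Il12b), and limma called 0 on voom-weighted counts and 0 on the deposited log2 CPM. The median log2 fold change of the 8 genes was 1.88 in IP against PBS, 1.61 in IV against PBS and 0.81 in IP against IV, beside 0.02, 0.04 and -0.02 over all genes tested. All 3 IP libraries lay above all 3 PBS libraries for 6 of the 8 genes, where this held for 28.4% of all tested genes and 24.8% lay below. All IV libraries lay above all PBS libraries for Il12b, Il27, Ebi3, Il12rb1 and Stat4 and below them for Il23a, where 16.5% of all tested genes lay above and 13.6% below. All IP libraries lay above all IV libraries for Il12b, Il27, Il12rb1 and Il12rb2, where 17.9% of all tested genes lay above and 13.5% below. The IP and IV comparisons with PBS share the PBS libraries. In whole tissue, more cells of a type and more RNA per cell cannot be told apart.

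**Figure D1:**
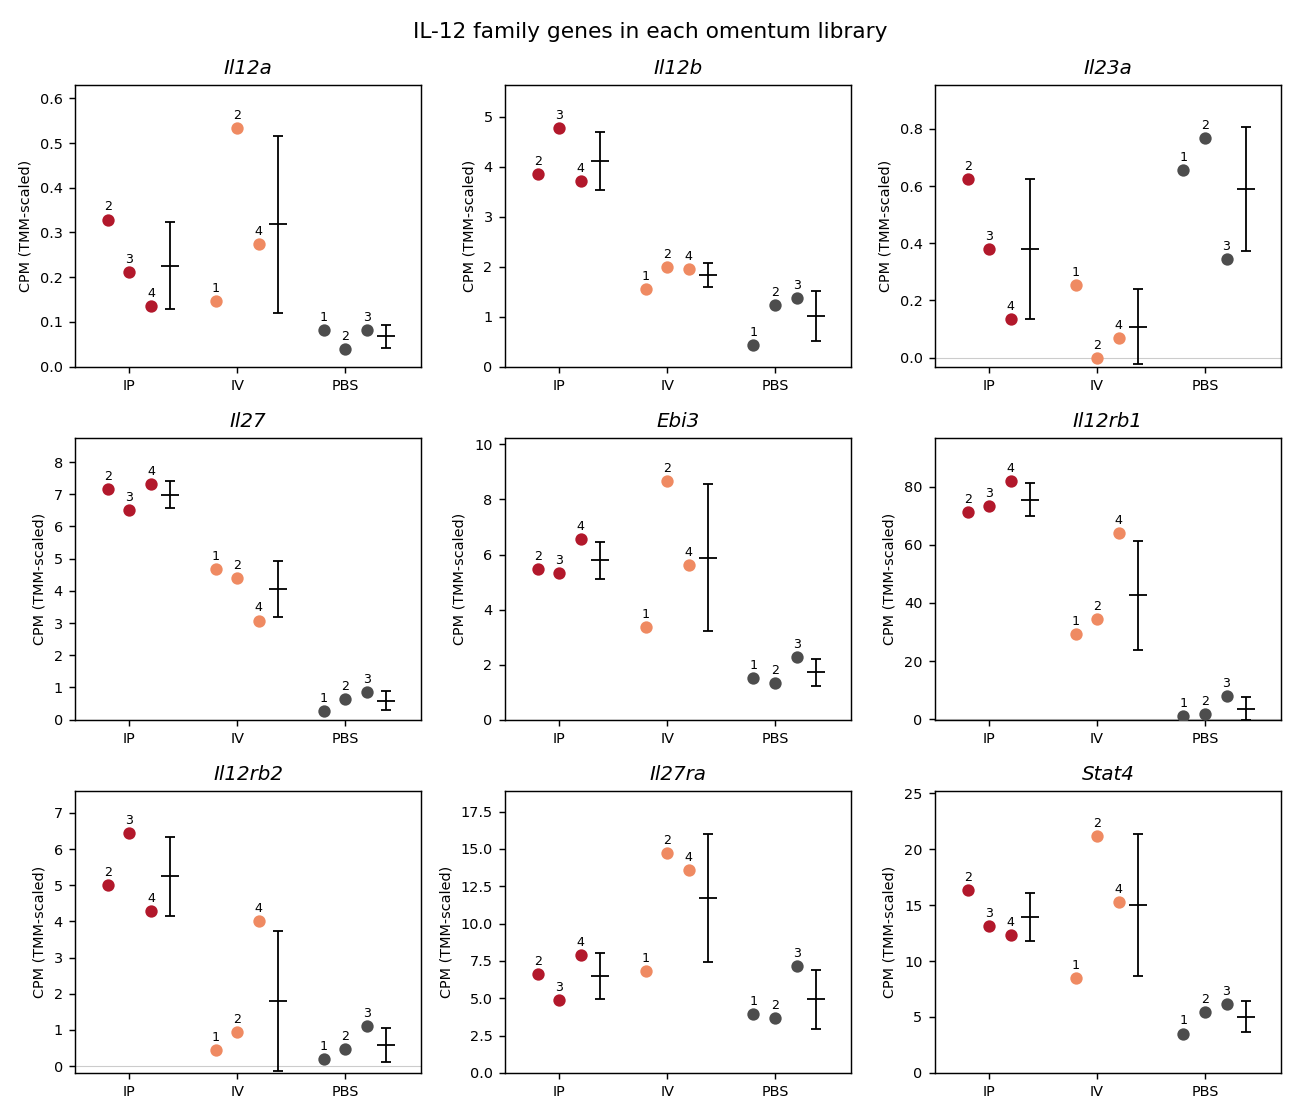
TMM-scaled CPM of each of the 9 genes (vertical axes, which differ between panels) in each omentum library, with IP, IV and PBS from left to right, mouse numbers above the points, and the group mean ± SD beside them (n = 3 each). The 3 IP libraries of Il12b, Il27, Ebi3, Il12rb1, Il12rb2 and Stat4 all sit above the 3 PBS libraries, while IV 4 stands far above IV 1 and IV 2 for Il12rb1 and Il12rb2.

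Promoter sequence in RefSeq (GRCm38.p6) was held for 5 of the 9 genes, Il12a, Il12b, Ebi3, Il12rb2 and Stat4, and the 250 bases before the annotated start are shown for the 4 of these that rose in IP against PBS. Each was searched on both strands for a GAS motif (TTCNNNGAA), the core of an ISRE (GAAANNGAAA), an NF-kB motif (GGGNNNNNCC) and an AP-1 motif (TGANTCA). Of 32851 mouse promoter windows of this length, 7.02% held the GAS motif, 2.98% the ISRE core, 45.8% the NF-kB motif and 6.75% the AP-1 motif. The windows are chr11:44399813-44400062 on the plus strand for Il12b, chr17:55952373-55952622 on the plus strand for Ebi3, chr6:67376189-67376438 on the minus strand for Il12rb2 and chr1:52007990-52008239 on the plus strand for the second of the 2 Stat4 entries. Capitals mark the motif matches.
Il12b: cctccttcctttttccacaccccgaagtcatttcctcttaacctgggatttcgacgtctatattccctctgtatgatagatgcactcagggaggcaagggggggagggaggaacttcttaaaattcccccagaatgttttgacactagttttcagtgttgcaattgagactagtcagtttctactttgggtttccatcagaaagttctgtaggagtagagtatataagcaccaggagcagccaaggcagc
Ebi3: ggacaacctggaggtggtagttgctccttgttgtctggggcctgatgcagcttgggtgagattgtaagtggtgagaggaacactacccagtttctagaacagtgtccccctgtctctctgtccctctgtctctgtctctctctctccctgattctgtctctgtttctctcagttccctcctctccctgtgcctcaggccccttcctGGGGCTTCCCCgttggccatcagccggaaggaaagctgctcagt
Il12rb2: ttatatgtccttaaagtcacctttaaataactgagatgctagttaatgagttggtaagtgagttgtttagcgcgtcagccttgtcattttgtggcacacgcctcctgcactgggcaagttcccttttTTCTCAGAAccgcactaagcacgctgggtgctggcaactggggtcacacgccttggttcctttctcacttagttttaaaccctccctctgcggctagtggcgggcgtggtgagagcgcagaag
Stat4: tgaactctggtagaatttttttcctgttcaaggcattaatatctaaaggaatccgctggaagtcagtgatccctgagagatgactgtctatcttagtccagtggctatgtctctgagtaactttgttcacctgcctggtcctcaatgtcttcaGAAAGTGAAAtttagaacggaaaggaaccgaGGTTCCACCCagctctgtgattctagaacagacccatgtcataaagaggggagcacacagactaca
The Ebi3 window held 2 overlapping matches of the NF-kB motif, 44 to 35 and 43 to 34 bases before the start. The Il12rb2 window held 1 GAS match, TTCTCAGAA, 123 to 115 bases before the start. The Stat4 window held 1 ISRE core, GAAAGTGAAA, 97 to 88 bases before the start and 1 NF-kB match 66 to 57 bases before it, while its first entry, like Il12b, held none of the 4 motifs. A match of letters is a description of the window and was not tied to the expression values.

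Among the chains of IL-12 and IL-23, the shared p40 gene rose after IP delivery while the partner chains Il12a and Il23a had at most 24 counts in any library. Il12b (ENSMUSG00000004296.15) had 3.85, 4.78 and 3.71 CPM in the IP libraries, 1.56, 2.00 and 1.96 CPM in the IV libraries and 0.437, 1.23 and 1.38 CPM in the PBS libraries. The 3 groups did not overlap, with IP highest and PBS lowest, and PBS 1 stood below the other PBS libraries. Il12b averaged 4.11 ± 0.584 CPM in IP omenta and 1.02 ± 0.507 CPM in PBS omenta (SD, n = 3 each), a log2 fold change of 2.01 ± 0.38 (approximate SE), which passed the test (edgeR adjusted p = 0.00237). The IV mean of 1.84 ± 0.242 CPM differed from that of PBS by 0.84 ± 0.39 on the log2 scale, which did not pass (edgeR adjusted p = 0.169). IP stood above IV by 1.17 ± 0.38 on the log2 scale (edgeR adjusted p = 0.079), a difference that passed in a fit of those 2 groups alone (edgeR adjusted p = 0.0259) and without PBS 1 (edgeR adjusted p = 0.0244).

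Il12a (ENSMUSG00000027776.13), the p35 gene, whose chain IL-12 has and IL-23 lacks, had 10, 5 and 4 counts in IP omenta, 4, 4 and 12 in IV omenta and 3, 1 and 4 in PBS omenta. On the CPM scale these were 0.329, 0.212 and 0.135 in IP, 0.146, 0.534 and 0.274 in IV, and 0.0819, 0.0384 and 0.0813 in PBS. Every treated library lay above every PBS library, and the IP and IV ranges overlapped. Exact two-sided permutation tests of the CPM gave p = 0.1 for IP against PBS and p = 0.1 for IV against PBS, the smallest value that 3 against 3 libraries allow, and p = 0.6 for IP against IV. Entered in a fit without the filter, Il12a had a log2 fold change of 1.58 ± 0.91 in IP against PBS (edgeR adjusted p = 0.311) and 1.94 ± 0.93 in IV against PBS (edgeR adjusted p = 0.249). A count of 3 is worth 0.4 CPM in IV 2 and 0.061 to 0.127 CPM in the other libraries, so the IV 2 value rests on 4 counts.

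Il23a (ENSMUSG00000025383.3), the p19 gene of IL-23, had 0.626, 0.381 and 0.135 CPM in IP, 0.255, 0 and 0.0685 CPM in IV and 0.655, 0.768 and 0.346 CPM in PBS. It was the 1 tested gene of the family with a negative log2 fold change against PBS, -0.60 ± 0.67 in IP and -2.14 ± 0.79 in IV, and neither passed (edgeR adjusted p = 0.536 and 0.0912). Without IV 4 the IV value was -1.65 ± 0.89 (edgeR adjusted p = 0.194). The IV libraries, with 7, 0 and 3 counts, did not overlap the PBS libraries, with 24, 20 and 17, whereas the IP libraries did. A count of 0 in IV 2 allows a level of up to 0.4 CPM there, which is above the 0.346 CPM of PBS 3. On the deposited log2 CPM, limma placed Il23a lower in IV than in PBS (log2 fold change -2.41 ± 0.71, limma adjusted p = 0.046). An upper bound drawn from a count of 0 covers counting error only. The ± values of the log2 fold changes rest on the spread between libraries.

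The IL-27 chains rose with both routes. Il27 (ENSMUSG00000044701.6), the p28 gene, had 7.15, 6.52 and 7.31 CPM in IP, 4.69, 4.40 and 3.08 CPM in IV and 0.273, 0.653 and 0.854 CPM in PBS. Its 3 groups did not overlap, in the order IP, IV, PBS, and its IP libraries lay within a narrow range. Il27 averaged 6.99 ± 0.418 CPM in IP omenta, 4.06 ± 0.859 CPM in IV omenta and 0.593 ± 0.295 CPM in PBS omenta (SD, n = 3 each). The rise was 11.6-fold in IP against PBS (log2 3.54 ± 0.37, edgeR adjusted p = 6.65e-05) and 6.68-fold in IV against PBS (log2 2.74 ± 0.37, edgeR adjusted p = 0.00217). The difference between the routes, 0.80 ± 0.33 on the log2 scale in favour of IP, did not pass (edgeR adjusted p = 0.156). In the older annotation 103 of its exonic bases, 10.1%, lie opposite exons of Apobr, which rose too in IP and in IV against PBS (log2 1.94 ± 0.29 and 0.96 ± 0.29, edgeR adjusted p = 0.000572 and 0.0471), and which strand setting the counting used is not stated in the labels.

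Ebi3, which codes for the beta chain of IL-27, had 5.47, 5.34 and 6.57 CPM in IP, 3.35, 8.67 and 5.62 CPM in IV and 1.53, 1.34 and 2.28 CPM in PBS. All treated libraries lay above all PBS libraries, and the IV libraries spread around the IP ones. The rise was 3.34-fold in IP (log2 1.74 ± 0.34, edgeR adjusted p = 0.00285) and 3.30-fold in IV (log2 1.72 ± 0.35, edgeR adjusted p = 0.00979). With any 1 library left out the IV call of Ebi3 held, at edgeR adjusted p-values of up to 0.0476. In the older annotation 270 of its exonic bases, 23.4%, lie opposite exons of Gm16712, which averaged 0.75 ± 0.46 CPM in IP omenta, 0.705 ± 0.0517 CPM in IV omenta and 0.324 ± 0.126 CPM in PBS omenta. Between IP and IV the log2 difference of Ebi3 was 0.02 ± 0.33 (edgeR adjusted p = 0.982), and its sign changed on the deposited log2 CPM and in 4 other settings. Per kilobase of exon, Ebi3 stood at 0.677, 0.724 and 0.795 times the Il27 level in the IP libraries, 0.631, 1.74 and 1.61 times in the IV libraries and 4.95, 1.82 and 2.36 times in the PBS libraries. This ratio was below 1 in all IP libraries and in IV 1, and above 1 in all PBS libraries. It was chosen after the values were seen and is a description with no test.

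Of the markers of cells that make these cytokines, most monocyte markers rose in IP against PBS. In that comparison the count of dendritic cell markers that rose was not far from the share of all genes. The summed level of 10 dendritic cell markers was 227 to 236 CPM in IP, 197 to 261 CPM in IV and 163 to 191 CPM in PBS. That of 10 macrophage markers was 1340 to 1440, 1350 to 1700 and 573 to 992 CPM in the same groups, and that of 7 monocyte markers 1130 to 1230, 579 to 874 and 126 to 293 CPM. No marker of these lists was at 0 in any library. In IP against PBS 3 of 10 dendritic cell markers rose and 1 fell, 5 of 10 macrophage markers rose and 3 fell, and 6 of 7 monocyte markers rose, where 18.7% of all tested genes were called higher and 14.2% lower. The median log2 fold changes of the lists were 0.12, 0.79 and 2.85, beside 0.02 over all genes. In IV against PBS 5 of 10, 5 of 10 and 4 of 7 rose and none fell, where 10.4% of all tested genes were called higher. Set against the sum of these 3 lists in the same library, Il27 stood at 0.251%, 0.233% and 0.261% in IP, 0.179%, 0.156% and 0.144% in IV and 0.0286%, 0.07% and 0.0578% in PBS, so that the groups stayed apart. Il12b stood at 0.135%, 0.171% and 0.132% in IP, 0.0595%, 0.0709% and 0.0916% in IV and 0.0457%, 0.132% and 0.0936% in PBS, and here PBS 2 was level with IP 4. Ebi3 stood at 0.192%, 0.191% and 0.234% in IP, 0.127%, 0.307% and 0.262% in IV and 0.16%, 0.144% and 0.154% in PBS, with IV 1 below all PBS libraries. The part of these cells in the results was not tested.

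Both receptor genes of IL-12 rose after IP delivery, and Il12rb1 also after IV delivery. Il12rb1, the beta 1 chain shared by the IL-12 and IL-23 receptors, had 71.2, 73.2 and 81.9 CPM in IP, 29.3, 34.6 and 63.9 CPM in IV and 1.26, 1.84 and 8.13 CPM in PBS. The 3 groups did not overlap, IV 4 stood apart from the other IV libraries, and PBS 3 from the other PBS libraries. Il12rb1 averaged 75.4 ± 5.69 CPM in IP omenta, 42.6 ± 18.6 CPM in IV omenta and 3.74 ± 3.81 CPM in PBS omenta (SD, n = 3 each). That is a 19.5-fold rise in IP (log2 4.29 ± 0.67, edgeR adjusted p = 0.00137) and an 11.1-fold rise in IV (log2 3.47 ± 0.65, edgeR adjusted p = 0.0104), and both fold changes were the largest among the 8 genes tested. Without PBS 3 the log2 fold changes were 5.62 ± 0.40 in IP and 4.80 ± 0.39 in IV (edgeR adjusted p = 1.03e-05 and 0.000102), and without IV 4 that of IV was 3.02 ± 0.72 (edgeR adjusted p = 0.0295). The IV call was lost in a fit with no filter on low counts (edgeR adjusted p = 0.0638). IP and IV differed by 0.82 ± 0.58 on the log2 scale, which did not pass (edgeR adjusted p = 0.438).

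Il12rb2, the beta 2 chain that IL-12 uses and IL-23 does not, and the one that recruits STAT4, had 5.0, 6.44 and 4.28 CPM in IP, 0.437, 0.934 and 4.02 CPM in IV and 0.191, 0.461 and 1.10 CPM in PBS. IV 1 and IV 2 lay within the PBS range, IV 4 lay just below the IP range, and all IP libraries lay above all PBS and IV libraries. Il12rb2 rose 8.65-fold in IP against PBS (log2 3.11 ± 0.76, edgeR adjusted p = 0.00972), a call that was lost with no filter on low counts (edgeR adjusted p = 0.0888) and without PBS 2 (edgeR adjusted p = 0.0507). The log2 fold change was 4.04 ± 0.89 without PBS 3, 4.36 ± 0.66 with the level of acinar transcripts as a covariate and 4.09 ± 0.75 on counts thinned to the shallowest library (edgeR adjusted p = 0.00681, 0.00109 and 0.00146). In IV against PBS the log2 fold change of 1.68 ± 0.76 did not pass (edgeR adjusted p = 0.158). Without IV 4 it was -0.01 ± 0.63 (edgeR adjusted p = 0.994). In IP against IV the log2 difference of 1.44 ± 0.71 did not pass (edgeR adjusted p = 0.24), and without IV 4 it was 3.12 ± 0.68 and passed (edgeR adjusted p = 0.0149). The exons of Il12rb2 overlap those of Serbp1 on the opposite strand over 1519 bases, 40.0% of the Il12rb2 exons in the older annotation. Serbp1, at 813 ± 50.9 CPM in IP omenta, 816 ± 120 CPM in IV omenta and 989 ± 138 CPM in PBS omenta, did not pass in any comparison.

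Il27ra, the ligand-binding chain of the IL-27 receptor, had 6.65, 4.87 and 7.92 CPM in IP, 6.80, 14.7 and 13.6 CPM in IV and 3.93, 3.65 and 7.17 CPM in PBS. IV 1 lay with the IP and PBS libraries and IV 2 and IV 4 above all others, so that no pair of groups was free of overlap. Il27ra rose in IV against PBS (log2 1.23 ± 0.35, edgeR adjusted p = 0.0376) and did not pass in IP against PBS (log2 0.39 ± 0.34, edgeR adjusted p = 0.425). The difference between the routes was -0.83 ± 0.35 on the log2 scale, IP minus IV, and did not pass (edgeR adjusted p = 0.159), so the routes were not shown to differ for Il27ra. The IV call was lost in 12 of 21 other settings, with adjusted p-values up to 0.143 in edgeR without PBS 1. Leaving out PBS 2, IV 2 or IV 4 also ended it, with edgeR adjusted p-values of 0.117, 0.126 and 0.0665, as did leaving out IP 2, IP 3 or IP 4, at 0.0614, 0.0514 and 0.0527.

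Stat4, the transcription factor that the IL-12 receptor activates, had 16.4, 13.1 and 12.3 CPM in IP, 8.51, 21.2 and 15.3 CPM in IV and 3.52, 5.45 and 6.14 CPM in PBS. All treated libraries lay above all PBS libraries, and the IP libraries fell within the IV range. The rise was 2.76-fold in IP (log2 1.46 ± 0.32, edgeR adjusted p = 0.00491) and 2.93-fold in IV (log2 1.55 ± 0.32, edgeR adjusted p = 0.0107). With any 1 library left out the IV call of Stat4 held, at edgeR adjusted p-values of up to 0.0478. Between IP and IV the log2 difference was -0.09 ± 0.31 (edgeR adjusted p = 0.901), and its sign changed in limma voom and without IV 2. Stat4 shares 1033 exonic bases, 26.7%, with Gm28177 on the same strand, which averaged 0.0366 ± 0.0341 CPM in IP omenta, 0.0794 ± 0.0494 CPM in IV omenta and 0.0943 ± 0.063 CPM in PBS omenta.

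**Figure D2:**
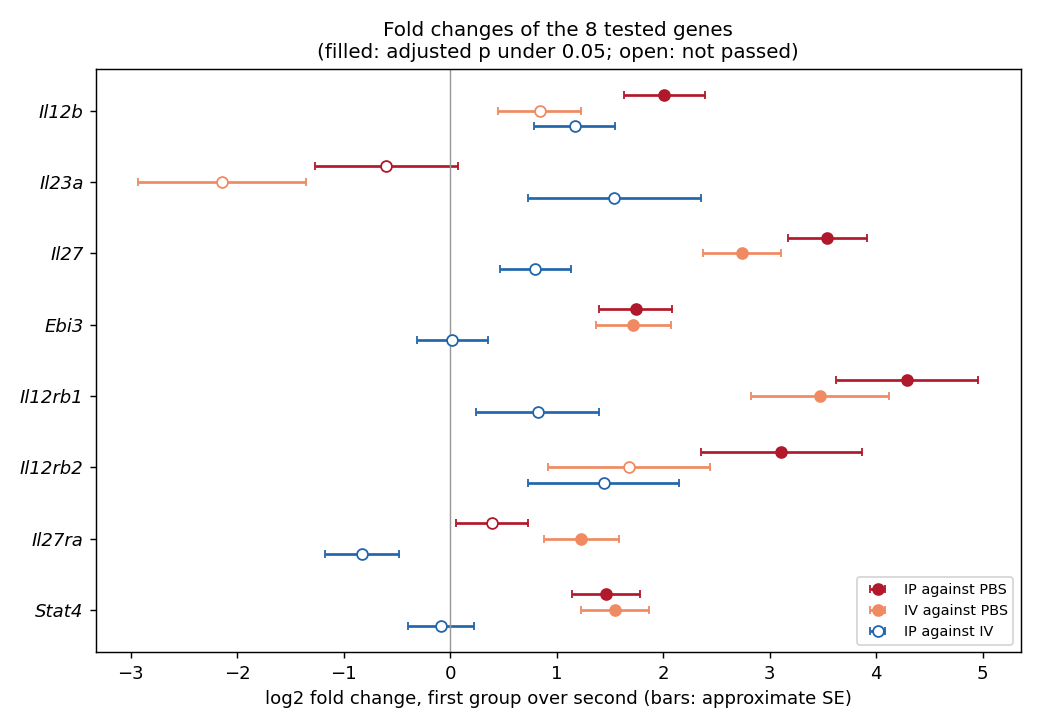
Log2 fold changes of the 8 tested genes (horizontal axis) with approximate SE bars, for IP against PBS (red), IV against PBS (orange) and IP against IV (blue), where filled points passed at an adjusted p under 0.05 and open points did not. Il12rb1 has the largest fold changes against PBS, 4.29 and 3.47, and every IP against IV point is open, with Il12rb2 in IV against PBS at 1.68 with IV 4 and -0.01 without it.

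Most T cell markers rose in both treated groups, and NK cell markers rose in part. The summed level of 10 T cell markers was 402 to 449 CPM in IP, 160 to 382 CPM in IV and 68.3 to 154 CPM in PBS, and 8 of the 10 rose in each treated group against PBS. The 8 NK cell markers summed to 154 to 162, 84.5 to 242 and 20.4 to 62.7 CPM in the same groups, and 3 of the 8 rose in IP (median log2 fold change 0.31) and 5 in IV (median 1.87) against PBS. In IP against IV 1 NK cell marker was lower and the median was -1.28. Of all tested genes 18.7% were called higher in IP against PBS, 10.4% higher in IV against PBS and 4.47% lower in IP against IV. No T cell or NK cell marker was at 0 in any library. Relative to the summed T cell markers of the same library, Il12rb1 stood at 15.8%, 18.2% and 20.3% in IP, 18.3%, 9.04% and 17.3% in IV and 1.84%, 1.54% and 5.27% in PBS, so all treated libraries stayed above all PBS libraries. Il12rb2 stood at 1.11%, 1.60% and 1.06% in IP, 0.273%, 0.244% and 1.09% in IV and 0.28%, 0.386% and 0.712% in PBS, where the IP libraries and IV 4 lay above all PBS libraries and IV 1 and IV 2 below them. Stat4 stood at 3.64%, 3.25% and 3.05% in IP, 5.33%, 5.55% and 4.14% in IV and 5.16%, 4.57% and 3.98% in PBS, so on this scale the IP libraries were the lowest. Il27ra stood at 1.48%, 1.21% and 1.97% in IP, 4.26%, 3.84% and 3.67% in IV and 5.76%, 3.06% and 4.65% in PBS, again with the IP libraries lowest. B cell markers summed to 34.6 to 61.2 CPM in IP, 128 to 462 CPM in IV and 54.7 to 66.1 CPM in PBS, and all 8 rose in IV against PBS, the comparison in which Il27ra rose. These ratios were chosen after the values were seen, and the part of the cells in the results was not tested.

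**Figure D3:**
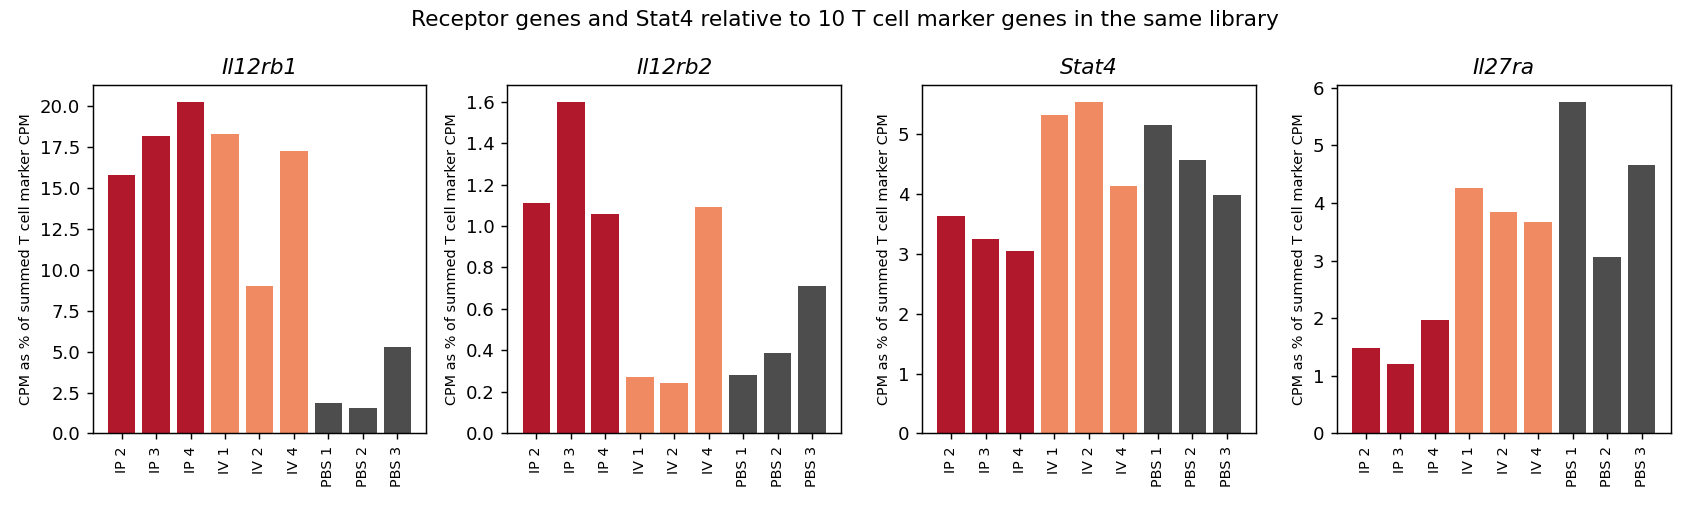
CPM of Il12rb1, Il12rb2, Stat4 and Il27ra as a percentage of the summed CPM of 10 T cell marker genes (vertical axes from 0, which differ between panels), 1 bar per library, with IP, IV and PBS from left to right. Il12rb1 is at 9.04% or more in every treated library and at 5.27% or less in every PBS library, and Stat4 and Il27ra are lowest in the 3 IP libraries.

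Levels of different genes were compared per kilobase of exon. In IP the order was Il12rb1 (18.4 CPM per kb), Il27 (6.85), Ebi3 (5.02), Stat4 (3.59), Il12b (2.09), Il27ra (1.85), Il12rb2 (1.38), Il23a (0.169) and Il12a (0.132 CPM per kb). Neighbours in this order did not overlap between libraries, other than Il12b with Il27ra, Il27ra with Il12rb2, and Il23a with Il12a. In IV the order was Il12rb1 (10.4 CPM per kb), Ebi3 (5.09), Il27 (3.98), Stat4 (3.87), Il27ra (3.34), Il12b (0.937), Il12rb2 (0.473), Il12a (0.187) and Il23a (0.0479 CPM per kb), and only Il27ra and Il12b were neighbours whose libraries did not overlap. In PBS the order was Ebi3 (1.49 CPM per kb), Il27ra (1.41), Stat4 (1.3), Il12rb1 (0.912), Il27 (0.581), Il12b (0.516), Il23a (0.262), Il12rb2 (0.154) and Il12a (0.0395 CPM per kb), and only Il12rb2 and Il12a did not overlap. Il12rb1 was thus first in IP and IV but below Ebi3, Il27ra and Stat4 in PBS, where it overlapped its neighbours. Il12b stood above Il12a in all 9 libraries, by 10.1, 19.5 and 23.8 times in IP, 9.30, 3.24 and 6.20 times in IV and 4.61, 27.7 and 14.7 times in PBS. These ratios are imprecise, since they rest on 1 to 12 Il12a counts a library, with 1 in PBS 2 and 4 in IV 2.

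**Figure D4:**
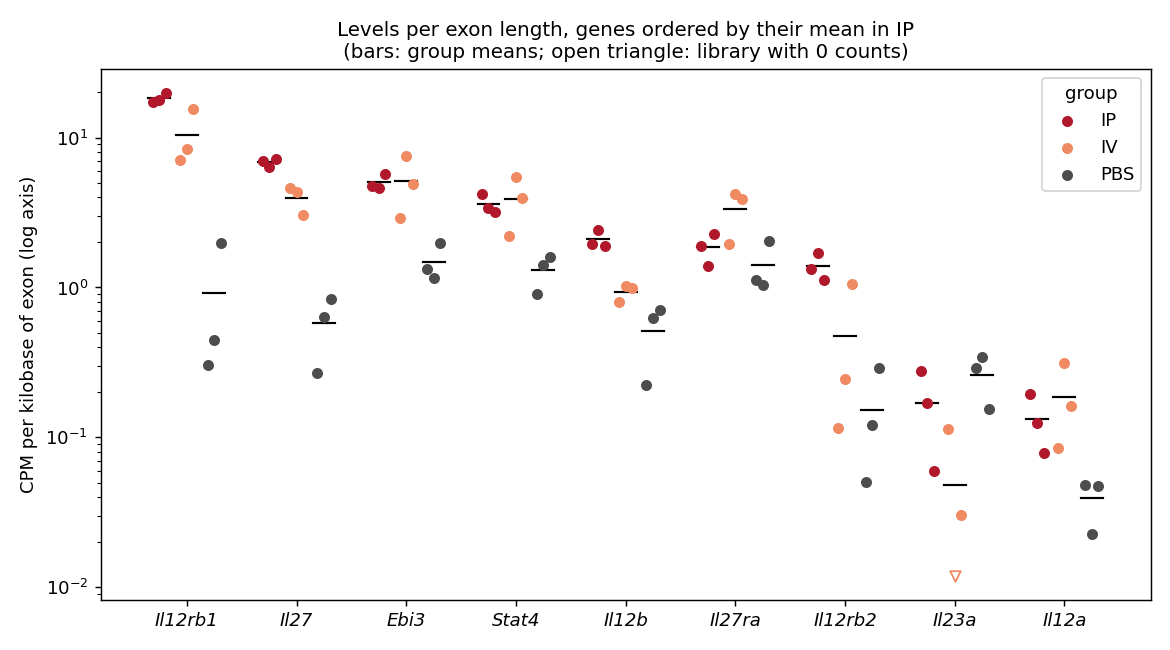
CPM per kilobase of exon (vertical, log axis) of the 9 genes, ordered by their IP mean, with IP, IV and PBS libraries from left to right within each gene, bars for the group means (n = 3) and an open triangle for the library with 0 Il23a counts. Il12rb1 has means of 18.4 in IP, 10.4 in IV and 0.912 in PBS, and Il12a and Il23a lie lowest in IP and IV.

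The patterns of the family across the 9 libraries differed from one gene to another. Likeness was measured as the root mean square difference of log2(CPM + 0.5), centred on each gene's mean, where 0 is an identical pattern. This distance tends to be larger for genes with a wide range, which on this scale was 5.55 for Il12rb1 and 1.34 for Il23a. The added 0.5 narrows the range of a gene as low as Il23a, so distances of different members are not on an equal footing. Among the members the closest pair was Ebi3 and Stat4 (0.24) and the farthest Il23a and Il12rb1 (2.36), while Il27 and Ebi3, the partner chains of IL-27, differed by 0.66 and Il12rb1 and Il12rb2, the partner chains of the IL-12 receptor, by 1.26. Of the genes with a mean of at least 5 CPM, those nearest to Il12b were Sema3g (0.14), Rab7b (0.15) and Efhd2 (0.20), and those nearest to Il23a were Cdr2 (0.16), Unc5b (0.18) and Pawr (0.21). Nearest to Il27 were Gsdmd (0.16), which codes for the pore-forming gasdermin D, Trafd1 (0.17) and Samhd1 (0.17), an antiviral dNTP hydrolase. Nearest to Ebi3 were Was (0.12), the Wiskott-Aldrich syndrome gene, Dennd2d (0.12) and Btk (0.14), a kinase of B cells and myeloid cells. Il12rb1 had no gene closer than the guanylate-binding protein genes Gbp5 (0.34) and Gbp8 (0.41) and the hexokinase gene Hk3 (0.42), and Il12rb2 none closer than the T cell surface genes Icos (0.30), Cd28 (0.33) and Pdcd1 (0.42). Nearest to Il27ra were the lectin gene Clec10a (0.14), Dpp4 (0.17) and N4bp2l1 (0.18), and nearest to Stat4 were Gimap5 (0.11), the Toll-like receptor gene Tlr1 (0.15) and Gimap1 (0.15). All genes of a library share its depth and cell makeup, and no test was made of these distances.

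Of the partner receptors and kinases, 5 of 6 tested genes rose in IP against PBS, 3 of 6 in IV against PBS and 0 of 6 in IP against IV, and none fell. The median log2 fold change of the list was 0.85, 0.54 and 0.34 in these comparisons, where that of all genes was 0.02, 0.04 and -0.02, and 18.7%, 10.4% and 5.93% of all tested genes were called higher. Il6st, the gp130 chain of the IL-27 receptor, averaged 147 ± 2.32 CPM in IP omenta and 96.8 ± 12.3 CPM in PBS omenta (log2 0.60 ± 0.16, edgeR adjusted p = 0.0135) and did not pass in IV against PBS (log2 0.11 ± 0.16, edgeR adjusted p = 0.683). Jak2, a kinase bound to the IL-12 receptor, rose by 1.09 ± 0.15 in IP and by 0.59 ± 0.15 in IV on the log2 scale (edgeR adjusted p = 0.00031 and 0.024). Stat3, a transcription factor that cytokine receptors with gp130 activate, averaged 582 ± 17.4 CPM in IP omenta, 384 ± 80.9 CPM in IV omenta and 231 ± 39.4 CPM in PBS omenta and rose with both routes (log2 1.33 ± 0.18 and 0.73 ± 0.18, edgeR adjusted p = 0.000297 and 0.0212). In IP against IV the unadjusted edgeR p was under 0.05 for Il6st, Jak2 and Stat3, DESeq2 called 2 of the list higher in IP, limma voom 1 and limma on the deposited log2 CPM 0, and without IV 4 edgeR called 3. Without PBS 1 or without PBS 2, 3 of this list rose in IP against PBS and 1 in IV against PBS, the calls lost including Il6st in IP (edgeR adjusted p = 0.054 and 0.074) and Stat3 and Jak2 in IV (edgeR adjusted p up to 0.109). Jak2 was also lost in IV without IV 2 (edgeR adjusted p = 0.0541). In fits of 2 groups 1 of the list rose in IV against PBS, and on the deposited log2 CPM 3 rose in IP. Il23r, the second chain of the IL-23 receptor, was below the filter, with 7, 3 and 12 counts in IP, 1, 1 and 12 in IV and 0, 3 and 4 in PBS.

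Of 14 type 1 genes known to lie downstream of IL-12, 12 rose and 1 fell in IP against PBS, 11 rose and 0 fell in IV against PBS, and 5 were higher and 1 lower in IP than in IV. Of all tested genes 18.7% were called higher and 14.2% lower in IP against PBS, 10.4% and 5.66% in IV against PBS, and 5.93% and 4.47% in IP against IV. The list's median log2 fold changes were 2.45, 1.71 and 0.93, beside 0.02, 0.04 and -0.02 over all genes. The 11 that rose in IV became 5 with no filter on low counts and 7 in a fit of 2 groups, where 8 were higher in IP than in IV. Ifng, the interferon-gamma gene, averaged 715 ± 131 CPM in IP omenta, 13.3 ± 2.60 CPM in IV omenta and 0.826 ± 0.656 CPM in PBS omenta, and rose in IP and IV (log2 9.74 ± 0.73 and 3.98 ± 0.60, edgeR adjusted p = 2.73e-05 and 0.00362). Gzmb, which codes for the cytotoxic protease granzyme B, averaged 565 ± 37.0, 35.1 ± 7.96 and 5.35 ± 3.74 CPM in the same groups (log2 6.71 ± 0.53 and 2.7 ± 0.45, edgeR adjusted p = 2.67e-05 and 0.00435). Gadd45b rose with both routes (log2 2.36 ± 0.19 in IP and 0.88 ± 0.19 in IV, edgeR adjusted p = 2.68e-05 and 0.0125), and Furin, a proprotein convertase, rose in IP (log2 1.71 ± 0.17, edgeR adjusted p = 5.91e-05) and did not pass in IV (log2 0.52 ± 0.17, edgeR adjusted p = 0.0635). The gene that fell was Cxcr3, a chemokine receptor named here after its value was seen, at 4.08 ± 1.54 CPM in IP omenta and 9.24 ± 1.36 CPM in PBS omenta (log2 -1.18 ± 0.33, edgeR adjusted p = 0.0183), a call lost without IP 2, IP 3 or PBS 3 (edgeR adjusted p = 0.0525 to 0.0752) and with the acinar covariate.

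Type 17 genes tied to IL-23 were sparse. Of 12 genes 7 were tested, of which 4 rose and 1 fell in IP against PBS, 2 rose and 0 fell in IV against PBS, and 1 was higher and 1 lower in IP than in IV (medians 0.72, 0.47 and 0.26 on the log2 scale, beside 0.02, 0.04 and -0.02 over all genes). The shares of all tested genes were 18.7% higher and 14.2% lower, 10.4% and 5.66%, and 5.93% and 4.47% in these comparisons. In fits of 2 groups 0 of the list rose in IV against PBS and 0 were higher in IP than in IV. Il17a, Il22 and Ccl20 had 0 counts in all 9 libraries, which allows up to 0.127 CPM in an IP library, 0.4 CPM in an IV library and 0.115 CPM in a PBS library. Il17f had at most 3 counts in any library. The genes that rose in IP were Ahr, the aryl hydrocarbon receptor (log2 1.52 ± 0.17, edgeR adjusted p = 0.000101), Batf (log2 0.72 ± 0.22, edgeR adjusted p = 0.0276), Il1r1, the receptor of interleukin-1 (log2 0.82 ± 0.23, edgeR adjusted p = 0.0207), and Csf2, which codes for the cytokine GM-CSF (log2 3.61 ± 0.80, edgeR adjusted p = 0.00579). None of these 4 belongs to type 17 cells alone. The Batf call was lost without IP 2, IP 3, IP 4, PBS 1 or PBS 3 (edgeR adjusted p = 0.0529 to 0.111), and that of Il1r1 without IP 2, PBS 1 or PBS 2 (edgeR adjusted p = 0.0651 to 0.0919). The gene that fell was Ccr6, a receptor of type 17 and B cells named after its value was seen, at 0.279 ± 0.0699 CPM in IP omenta and 0.945 ± 0.227 CPM in PBS omenta (log2 -1.75 ± 0.60, edgeR adjusted p = 0.0465). Limma voom called 0 genes of this list lower, and the Ccr6 call was lost without IP 2, IP 3, IP 4, IV 2 or any 1 PBS library (edgeR adjusted p = 0.0595 to 0.146). Without IP 2 or without PBS 1, 2 of the list rose in IP, and without PBS 1 or without IV 2, 1 rose in IV. Without IP 2, IP 3, IP 4, IV 1 or IV 2, 0 were higher in IP than in IV, and without IV 4, 2 were.

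Of 12 genes known to respond to IL-27, 11 rose in IP against PBS, 8 in IV against PBS and 4 were higher in IP than in IV, and none fell (medians 2.64, 1.58 and 1.01 on the log2 scale), where 18.7%, 10.4% and 5.93% of all tested genes were called higher. Socs1, a feedback inhibitor of cytokine signalling, averaged 176 ± 17.1 CPM in IP omenta, 59.5 ± 9.93 CPM in IV omenta and 7.22 ± 5.68 CPM in PBS omenta and rose with both routes (log2 4.59 ± 0.55 and 3.03 ± 0.52, edgeR adjusted p = 0.000239 and 0.00619). Socs3, of the same family, rose by 2.75 ± 0.17 in IP and 0.91 ± 0.17 in IV on the log2 scale (edgeR adjusted p = 1.25e-05 and 0.00625). Entpd1, which codes for the ectonucleotidase CD39, rose by 2.68 ± 0.22 and 1.61 ± 0.22 (edgeR adjusted p = 2.73e-05 and 0.00223), and Cd274, the PD-L1 gene, by 4.01 ± 0.42 and 2.62 ± 0.39 (edgeR adjusted p = 6.65e-05 and 0.003). Interferon-gamma also induces several genes of this list, and Ifng rose in the same comparisons, its part in these results being not tested. Without PBS 2, 5 of the list rose in IV against PBS, and in a fit of 2 groups 8 were higher in IP than in IV.

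Of 16 genes tied to the expression of IL-12 family chains in antigen presenting cells, 14 rose in IP against PBS, 10 in IV against PBS and 5 were higher in IP than in IV, and none fell (medians 1.65, 1.06 and 0.64 on the log2 scale), where 18.7%, 10.4% and 5.93% of all tested genes were called higher. Irf8, a transcription factor needed for Il12b expression, averaged 265 ± 5.74 CPM in IP omenta, 165 ± 29.3 CPM in IV omenta and 38.8 ± 19.1 CPM in PBS omenta (log2 2.77 ± 0.32 and 2.09 ± 0.31, edgeR adjusted p = 0.000111 and 0.00296). Irf5 rose by 2.68 ± 0.23 in IP and 1.58 ± 0.22 in IV on the log2 scale (edgeR adjusted p = 3.21e-05 and 0.00271). Myd88, the adaptor of Toll-like receptors, rose by 2.19 ± 0.18 and 1.41 ± 0.18 (edgeR adjusted p = 2.69e-05 and 0.0019), and Spi1, which codes for the myeloid factor PU.1, by 2.11 ± 0.24 and 1.5 ± 0.23 (edgeR adjusted p = 9.77e-05 and 0.00333). Monocyte markers moved in the same direction, at 1130 to 1230 CPM in IP, 579 to 874 CPM in IV and 126 to 293 CPM in PBS, and their part in these results was not tested. Without IV 2, without PBS 2, with no filter on low counts, with the acinar covariate or in a fit of 2 groups, 6 of the list rose in IV against PBS. In IP against IV, 1 was higher in IP without IP 2, 2 without IP 3, and 3 without IP 4, IV 1 or IV 2, while a fit of 2 groups called 9 and one with the title number as a block 1.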

How the data were processed

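Poly(A) RNA of 9 omenta was sequenced as strand-marked paired reads, per the labels' protocols. The submitters' processing notes list STAR 2.7.9, featureCounts and limma, without roles, and the build mm39. Which annotation and strand setting were used is not stated there. The deposited table of counts holds whole-number read counts of 55359 genes and was used as deposited. The deposited log2 CPM of 18833 genes matched log2((count + 0.5) / (total + 1) × 1e+06) to within 5e-14, so no scaling beyond the library total entered it, and it served as an alternative measure. Symbols (52083 genes matched) and exon lengths came from GENCODE M21 on GRCm38, an older build, and 17087 of the 17123 tested genes had a symbol.

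Counts were filtered with filterByExpr on the 3 groups, scaled by TMM and fitted with edgeR 4.0.16 (robust quasi-likelihood, all 9 libraries, no covariate) in R 4.3.3. Tests were two-sided and given Benjamini-Hochberg adjustment across the 17123 genes, with 0.05 as threshold. The approximate SE is |log2 fold change| over the root of F. CPM use TMM-scaled library sizes, and ± after a CPM is the SD over 3 libraries. Il12a, below the filter, got exact permutation tests. The 24 member comparisons belong to 1 fit. Scripts were tested on simulated counts. The members, 5 pathway lists, 12 marker lists and tests were chosen with earlier results of these data known, so they are not independent of them. Genes named are all members, up to 4 genes with the smallest p in IP against PBS from each pathway list, and the 3 genes most like each tested member among genes with a mean of at least 5 CPM and a settled symbol. A gene that this rule covers is not reported here and stays in the fit and the list counts. Alternatives were DESeq2 1.42.0 (size factors, Wald test), limma 3.58.1 (voom, and a trended fit of the deposited log2 CPM), 2 further filters, fits of 2 groups, number blocks, thinning to 7379798 counts, acinar genes left out or as a covariate, and each library left out. Within groups, the smallest chi-square per degree of freedom between libraries was 7.35, so no pair agreed within sampling noise. Separate mouse numbers label the libraries, so each was taken as 1 mouse. The edgeR p-values weigh a difference against a spread between mice that is pooled over the 3 groups and moderated across genes. A comparison of 2 groups therefore also rests on the third.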

Additional observations from a re-analysis of the deposited data

Results flagged for a closer look

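Of the pathway genes named by rule, 10 were higher in IP than in IV past the threshold, where 10.4% of all tested genes were called in this comparison, 5.93% higher in IP (edgeR quasi-likelihood test of IP against IV, equal to testing whether their 2 effects against PBS differ, with 3 libraries a group). These genes were named for the smallest p in IP against PBS, a comparison that shares the IP libraries, so their number and direction follow in part from that choice and are a description. Of the type 1 genes, the log2 difference was 5.76 ± 0.61 for Ifng (adjusted p = 0.000824), 4.01 ± 0.47 for Gzmb (adjusted p = 0.000861), 1.49 ± 0.19 for Gadd45b (adjusted p = 0.00118) and 1.19 ± 0.17 for Furin (adjusted p = 0.00232). Of the IL-27 responsive genes, it was 1.84 ± 0.17 for Socs3 (adjusted p = 0.00031), 1.07 ± 0.21 for Entpd1 (adjusted p = 0.0107) and 1.38 ± 0.38 for Cd274 (adjusted p = 0.042). Of the genes tied to IL-12 family expression in antigen presenting cells, it was 1.11 ± 0.22 for Irf5 (adjusted p = 0.0111) and 0.78 ± 0.17 for Myd88 (adjusted p = 0.0172), and of the type 17 genes 0.67 ± 0.17 for Ahr (adjusted p = 0.0304). For each of these 10 genes the 3 IP libraries lay above the 3 IV libraries, where 17.9% of all tested genes did. Cxcr3 and Ccr6, named after their values were seen, were lower in IP than in IV, by a log2 difference of -1.87 ± 0.33 (adjusted p = 0.00624) and -2.63 ± 0.61 (adjusted p = 0.0217). Leaving out 1 library ended the edgeR call of Cd274 in 7 of 9 cases (IP 2, IP 3, IP 4, IV 1, IV 2, IV 4 or PBS 2, adjusted p = 0.0675 to 0.142), of Ahr in 5 (IP 2, IP 3, IP 4, IV 1 or IV 2, 0.0574 to 0.139), of Ccr6 in 5 (IP 2, IP 3, IP 4, IV 2 or IV 4, 0.056 to 0.0899), of Myd88 in 2 (IP 2 or IP 3, 0.0679 and 0.0754) and of Irf5 in 1 (IP 2, 0.0507).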

How the results depend on the processing

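Each of the 24 member comparisons was repeated in up to 21 other settings, and in all 468 results kept their direction and side of the threshold, 15 lost significance, 7 gained it and 8 changed sign. Member calls stayed at 5 to 6 in IP against PBS and 4 to 5 in IV against PBS, of which 1 (Il23a) was lower on the deposited log2 CPM. In IP against IV, where edgeR called 0, 1 member was called by the DESeq2 Wald test and in a fit of only 2 groups (Il12b in both) and 1 when acinar level was a covariate (Il12rb2), and leaving out 1 library gave 0 to 1 (Il12b without PBS 1, Il12rb2 without IV 4). All genes called in IV against PBS, 2753, became 1056 in a fit of only 2 groups, 1398 with the acinar covariate and 1005 to 4578 with 1 library left out. Those in IP against IV, 1780, became 1134 with the title number as a replicate block and 691 to 2865 with 1 library left out. Signs changed for Il12rb2 in IV against PBS (-0.01 without IV 4, -0.01 to 2.60 over the libraries left out), for Ebi3 in IP against IV (-0.02 on the deposited log2 CPM, -0.16 with the title number block, -0.08 without IP 4, -0.27 without IV 1 and -0.11 on thinned counts, -0.27 to 0.36 over the libraries left out) and for Stat4 in IP against IV (0.09 in limma voom and 0.22 without IV 2, -0.38 to 0.22 over the libraries left out). The acinar covariate also moved Il12rb2 past the threshold in IV against PBS (log2 2.29, edgeR adjusted p = 0.0447) and in IP against IV (log2 2.07, edgeR adjusted p = 0.0363). The cause was not tested. On the deposited log2 CPM the all-gene median of IP against PBS was -0.141, and 2587 genes were called higher and 3488 lower, against 3197 and 2429 in edgeR. Title numbers (2 shared in each comparison) and description numbers disagree. Deviations of same-numbered libraries from their group means correlated at r = -0.399 to 0.1 for title numbers and -0.399 to 0.258 for description numbers. With 3 libraries a group, these correlations cannot show whether same-numbered mice shared more than a number. With the title number as a block the members called were 6, 4 and 0 in IP against PBS, IV against PBS and IP against IV, and with the description number 6, 5 and 0. Il23a gave no value under the stricter filter or on thinned counts. Depth limits Il12a and Il23a most, with 1 to 12 and 0 to 24 counts a library.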
